A study of Sus scrofa with 4 samples.

Results

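The epidermal keratins are the structural genes that separate the basal layer of the epidermis from the layers above it. The genes described here were chosen by name, as the basal keratins KRT5, KRT14 and KRT15, the suprabasal keratins KRT1, KRT10, KRT2 and KRT77, and KRT80, a keratin of differentiated epithelium. These genes and the gene lists used below were set with earlier results of these data known. Their counts of calls are therefore descriptions, not independent tests, beside the shares of all genes. Of these 8 genes, 7 had a row in the count table, which held 29837 named genes, and all 7 passed the filter on low counts. KRT14 is not analysed here, since no row of the table used here carries that symbol. The libraries came from epidermal cells of 2 juvenile pigs, 88R and 95R, and each pig gave 1 library of LGR5-H2B-GFP-high cells (LGR5-high) and 1 of GFP-negative cells (LGR5-negative). All 4 libraries therefore share the same genotype, in which H2B-GFP, a histone joined to a green fluorescent protein, had been knocked into exon 1 of 1 LGR5 allele while the other allele kept LGR5. The line goes back to clonal edited cells used for somatic cell nuclear transfer. Live cells were sorted by GFP after dispase and trypsin had freed the epidermis and hair from the dermis, and cells of intermediate GFP are not analysed here. The comparison asks how cells high in GFP of the LGR5 reporter, a mark of hair follicle stem cells, differ from GFP-negative cells of the same preparation.

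Keratins build the intermediate filaments of epithelial cells, and each filament needs a type I (acidic) and a type II (basic) keratin. KRT5 (type II) pairs with KRT14 (type I) in basal keratinocytes, and KRT15 is a further type I keratin of basal cells that is widely used as a mark of the hair follicle bulge. Cells that leave the basal layer switch to KRT1 (type II) and KRT10 (type I), and KRT2 (type II) is added in the upper layers. KRT77 is a type II keratin closely related to KRT1. The genes of each type lie in a cluster of their own, apart from KRT18, a type I gene that lies in the type II cluster. In the RefSeq gene order KRT2, KRT1 and KRT77 are direct neighbours.

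Counts on named genes numbered between 30696803 and 32463362 per library. At this depth 3 counts, taken as the floor of detection, corresponded to between 0.0873 and 0.105 CPM (counts normalised for library size), far under every value of the 7 keratins. CPM were scaled with the TMM method of edgeR, a trimmed mean of log ratios, and levels were not divided by transcript length, so that a value may be compared between libraries but not between genes. LGR5 itself had 160.4 ± 39.6 CPM (SD, n = 2 pigs) in the LGR5-high cells against 2.435 ± 1.66 CPM, in the direction of the sort. In sorted bulk RNA, fewer cells of a type and less RNA per cell cannot be told apart. Keratin genes are similar in sequence, and how reads shared between them were counted is not stated, so that part of each value may belong to a related gene.

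The suprabasal pair KRT1 and KRT10 had the largest changes among the 7 keratins. KRT1 had 2635.8 CPM in pig 88R and 2286.1 CPM in pig 95R in LGR5-high, against 31266 and 26755 CPM in LGR5-negative. KRT10, its type I partner, had 2771.5 and 2557.5 CPM in the LGR5-high libraries, against 31045 and 26591 CPM. Both genes were low in both LGR5-high libraries, high in both LGR5-negative libraries, and the populations did not overlap. How many of all genes lacked overlap was not counted, and KRT5, which was not called, did not overlap either. Lack of overlap is therefore given, here and below, as a description only. LGR5-high held 8.48% of the LGR5-negative mean for KRT1 and 9.25% for KRT10, so that neither gene was absent there. The KRT1 counts behind these levels were 90610 and 75524 in LGR5-high. The log2 fold change of LGR5-high over LGR5-negative was -3.56 for KRT1 (standard error 0.147, adjusted p = 6.71e-05) and -3.44 for KRT10 (standard error 0.135, adjusted p = 6.62e-05), in the quasi-likelihood test of edgeR on the counts, with p-values adjusted over 15980 genes by Benjamini-Hochberg. In that test 22.7% of all genes were higher and 22% lower in LGR5-high, and the median log2 fold change of all genes was 0.015. The pigs gave nearly the same change, with -3.57 and -3.55 for KRT1 and -3.49 and -3.38 for KRT10. Among all genes tested, the drop of KRT1 ranked 89 and that of KRT10 ranked 108 by size.

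**Figure D1:**
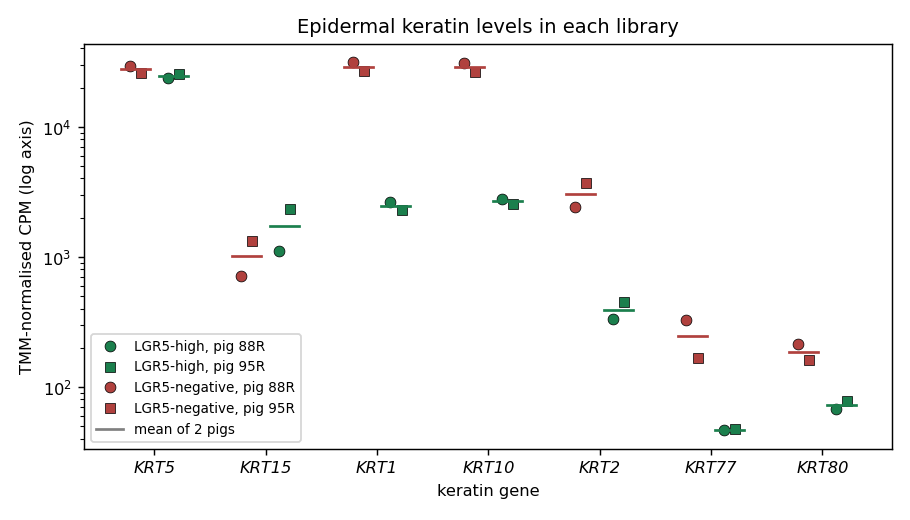
TMM-normalised CPM (log axis) of each of the 7 keratin genes in each of the 4 libraries, with circles for pig 88R, squares for pig 95R and a line at the mean of 2 pigs. KRT1 and KRT10 lie at 26591 CPM or more in LGR5-negative and at 2771.5 CPM or less in LGR5-high, while KRT5 lies between 23664 and 29558 CPM in all 4 libraries.

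KRT2, the keratin of the upper suprabasal layers, was lower in LGR5-high in both pigs. Its LGR5-high libraries had 332.69 CPM (pig 88R) and 451.12 CPM (pig 95R), against 2413.1 and 3687.7 CPM in the LGR5-negative ones. The higher LGR5-high value was still far under the lower LGR5-negative value. The fold was 7.78 between the means, with a log2 fold change of -2.96 (standard error 0.254, edgeR adjusted p = 5.14e-04). By pig the log2 fold changes of KRT2 were -2.86 and -3.03.

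KRT77 and KRT80 were lower in LGR5-high as well. KRT77 had 46.193 CPM in LGR5-high of pig 88R and 47.192 CPM in that of pig 95R, against 327.19 and 167.05 CPM for LGR5-negative. The LGR5-high libraries were alike, and the spread lay in LGR5-negative, where pig 88R was the higher. The log2 fold change of KRT77 was -2.40 (standard error 0.31, edgeR adjusted p = 0.00215). By pig it was -2.82 for 88R and -1.82 for 95R. KRT80, a type II keratin found in many differentiating epithelia, had 67.167 and 77.946 CPM in the LGR5-high libraries, against 211.78 and 160.33 CPM. These values did not overlap either, but the 2.56-fold difference was the smallest among the 5 keratins called lower. The log2 fold change of KRT80 was -1.36 (standard error 0.155, edgeR adjusted p = 0.00138). The calls of KRT2, KRT77 and KRT80 were lost with Bonferroni adjustment over all genes and with the test that the study's methods name.

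KRT5, the type II keratin of the basal layer, took between 2.432% and 2.743% of the counts of every library. Pig 88R had 23664 CPM of KRT5 in its LGR5-high library and 29558 CPM in its LGR5-negative library, and pig 95R had 25491 and 26128 CPM. The lowest LGR5-negative value lay only just above the highest LGR5-high value. The log2 fold change of KRT5 was -0.18 (standard error 0.119, edgeR adjusted p = 0.265), and with pigs as a block it was -0.18 (adjusted p = 0.127). By pig, 88R gave -0.32 and 95R gave -0.04. Scaled by library size only, without TMM, the log2 fold change of KRT5 turned to 0.04, not called, so that no direction is given for it.

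KRT15, the type I keratin of basal and bulge cells, was the single member whose mean was above that of LGR5-negative. Pig 88R had 1115.8 CPM in its LGR5-high library and 715.02 CPM in its LGR5-negative library, and pig 95R had 2345.4 and 1323.9 CPM. LGR5-high was above LGR5-negative within each pig, but the populations overlapped across pigs, since LGR5-negative of pig 95R was above LGR5-high of pig 88R. The log2 fold change of KRT15 was 0.76 (standard error 0.417, edgeR adjusted p = 0.187) when the pigs were not taken into account. With the pig as a block, as the shared animals allow, it was 0.73 (standard error 0.0904, edgeR adjusted p = 2.13e-06), and KRT15 was then called higher in LGR5-high. The call thus rested on the pairing of libraries by animal, and by pig the log2 fold changes were 0.64 and 0.83. Leaving out the LGR5-negative library of pig 95R gave 1.27 and a call without the block (edgeR adjusted p = 0.0458), while leaving out that pig's LGR5-high library gave the lowest value, 0.14.

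**Figure D2:**
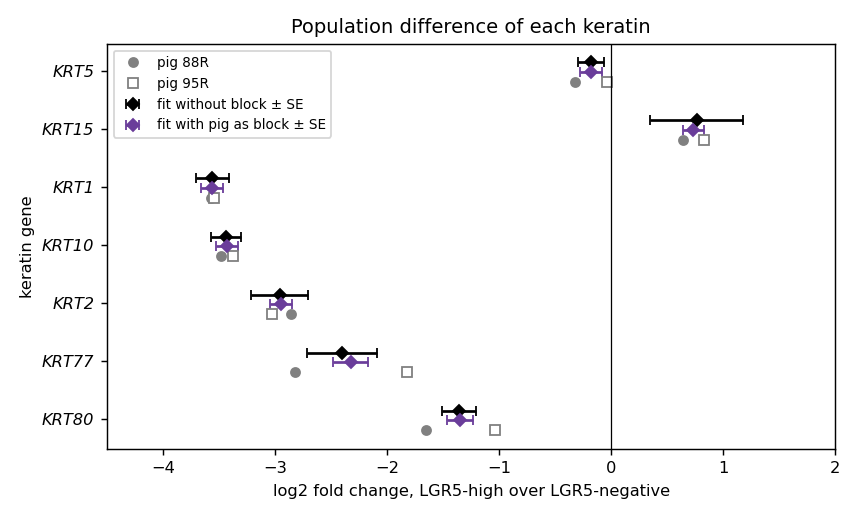
Log2 fold change of LGR5-high over LGR5-negative for each of the 7 keratins, as fitted by edgeR without (black) and with (purple) the pig as a block, with bars of 1 standard error, and in each pig (grey circles for 88R, open squares for 95R). The KRT15 estimate is nearly unchanged by the block, at 0.76 and 0.73, while its standard error goes from 0.417 to 0.0904. The standard errors were derived from the fold change and the F statistic of the test.

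Of the 7 keratins, 5 were lower and 0 were higher in LGR5-high without the block, where 22% of all genes were lower. With the block 5 were lower and 1, KRT15, was higher, against 27.2% and 28.5% of all genes. The median log2 fold change of the 7 was -2.40. The 4 suprabasal genes and KRT80 made up all 5 lower calls, and neither basal gene was among them.

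The libraries of pig 95R and pig 88R differed for a pair of these genes. A test of pig 95R against pig 88R in the blocked fit called 1.78% of all genes higher and 2.52% lower in pig 95R. It was added after the counts had been seen. The 2 populations of an animal are its replicates, so that its p-values do not measure variation between animals. An animal and the handling of its cells cannot be told apart here. KRT15 was higher in pig 95R, with a log2 difference of 0.98 (standard error 0.0907, edgeR adjusted p = 3.93e-06), of 1.07 in LGR5-high and 0.89 in LGR5-negative. KRT2 was also higher in pig 95R, with a log2 difference of 0.53 (standard error 0.09, edgeR adjusted p = 0.0021). The log2 difference of KRT15 between the pigs, 0.98, stands beside 0.73 between the populations in the same fit, and which is larger was not tested. For KRT77 the pigs were alike in LGR5-high, at a log2 difference of 0.03, and apart in LGR5-negative, at -0.97; the change between populations in 1 pig against the other could not be tested with 1 library of each kind per pig. KRT77 was not called between the pigs over both populations (log2 difference -0.49, edgeR adjusted p = 0.0958), nor were KRT1, KRT10, KRT5 and KRT80, with log2 differences between -0.215 and -0.035.

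As a share of all counts, the 7 keratins held 3.32% and 3.579% in LGR5-high and 8.781% and 7.895% in LGR5-negative, in pigs 88R and 95R. The mean was 3.45% ± 0.183 (SD, n = 2 pigs) and 8.338% ± 0.626, and the populations did not overlap. The mean shares of the suprabasal genes were lower in LGR5-high and those of the basal genes were not, at 0.601% ± 0.0369 against 5.652% ± 0.462 for the suprabasal genes and 2.841% ± 0.219 against 2.668% ± 0.161 for the basal genes (SD, n = 2). KRT1, KRT10, KRT2 and KRT77 together took 0.6271% and 0.5749% of LGR5-high counts against 5.979% and 5.325% of LGR5-negative counts. The basal genes KRT5 and KRT15 took 2.686% and 2.996% of LGR5-high counts and 2.782% and 2.555% of LGR5-negative counts, which overlapped between the populations. The exact binomial 95% intervals, which cover counting error only, were narrow, such as 8.771% to 8.791% around the 8.781%.

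**Figure D3:**
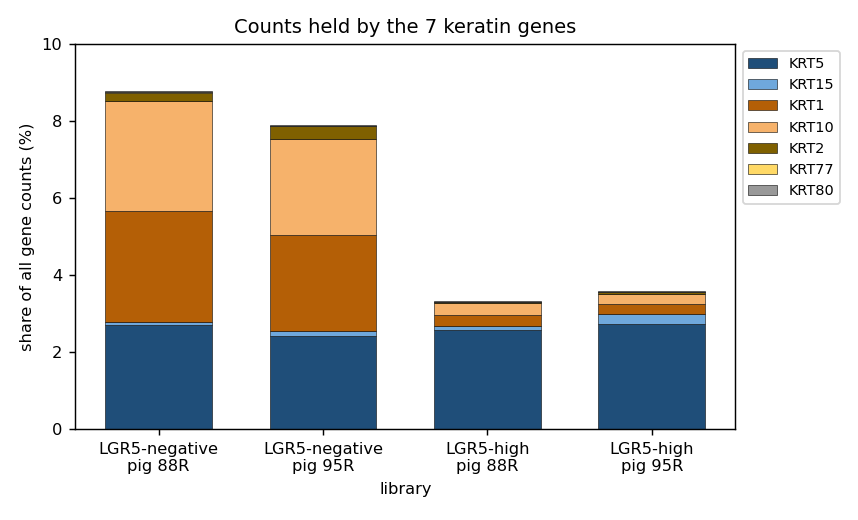
Share of all gene counts (percent) held by each of the 7 keratins, stacked, in each of the 4 libraries. The KRT5 segment is between 2.432% and 2.743% in every library, while the KRT1 and KRT10 segments are 2.475% or more each in LGR5-negative and at 0.3004% or less in LGR5-high.

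Ratios of counts within a library do not depend on the scaling between libraries. KRT5 over the sum of KRT1 and KRT10 was 4.38 and 5.26 in LGR5-high and 0.474 and 0.49 in LGR5-negative, for pigs 88R and 95R. The ratio was 9.23-fold higher in LGR5-high than in LGR5-negative in pig 88R and 10.7-fold higher in pig 95R. It holds KRT5 without its partner KRT14 and is not corrected for length, so that its size may be compared between libraries but not with 1. An exact two-sided permutation test over the 4 libraries gave p = 0.333, the smallest value this design allows.

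The keratins that were lower did not all fall by the same factor. KRT1 over KRT10 was 0.951 and 0.894 in LGR5-high and 1.01 in both LGR5-negative libraries, so that the pair kept close to the same ratio in reads. KRT80 over KRT1 was 0.0255 and 0.0341 in LGR5-high against 0.00677 and 0.00599 in LGR5-negative, 3.76-fold and 5.69-fold higher by pig. KRT77 over KRT1 was 1.67-fold and 3.31-fold higher in LGR5-high, with no overlap. KRT2 over KRT1 was 1.64-fold and 1.43-fold higher, but here the values overlapped across pigs, since LGR5-negative of pig 95R at 0.138 was above LGR5-high of pig 88R at 0.126. KRT15 over KRT5 was 0.0472 and 0.092 in LGR5-high and 0.0242 and 0.0507 in LGR5-negative, with the same kind of overlap. The exact two-sided permutation p was 0.333 for the ratios without overlap and 0.667 for KRT2 over KRT1 and KRT15 over KRT5, in a test that does not use the pairing by pig. Within the pigs KRT15 over KRT5 was 1.95-fold higher in LGR5-high for 88R and 1.82-fold higher for 95R. Ratios other than KRT1 over KRT10 were chosen after the counts had been seen.

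**Figure D4:**
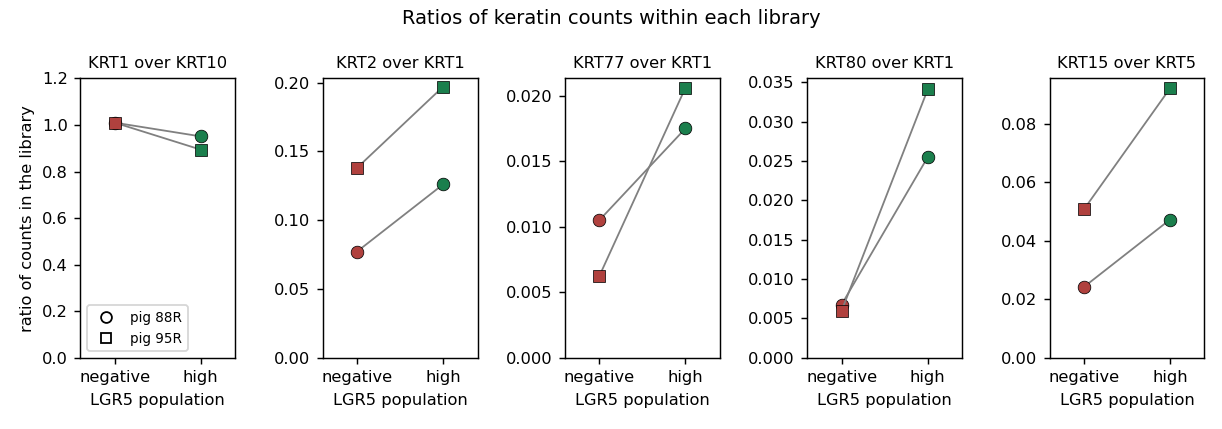
Ratio of counts within a library for 5 pairs of keratins, with lines joining the LGR5-negative and LGR5-high libraries of a pig (circles 88R, squares 95R) and each axis starting at 0. KRT1 over KRT10 stays between 0.894 and 1.01, while KRT80 over KRT1 is 0.0255 or more in both LGR5-high libraries and 0.00677 or less in both LGR5-negative libraries.

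The keratins of other epithelia and of the hair follicle went in both directions. Of 28 such genes in the table, 23 were tested, 8 were higher and 6 lower in LGR5-high, where 22.7% and 22% of all genes were. Among keratins of activated epidermis, the companion layer and the infundibulum, 1 of 4 was higher and 1 lower: KRT6A, a keratin of the companion layer and of wounded epidermis, had 1771 ± 127 CPM in the LGR5-high cells against 89.02 ± 31.1 CPM (SD, n = 2), a log2 fold change of 4.31. KRT79, a keratin of the infundibulum, was lower, at -0.98.

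Keratins of the inner root sheath, the sleeve around the growing hair, were higher for 4 of 5 tested genes and lower for 0. Their median log2 fold change was 2.70. Of all genes 22.7% were higher and 22% lower, the shares for the hair shaft and simple epithelium counts below as well. KRT25 had a mean of 636.9 CPM in LGR5-high against 55.06 CPM, KRT27 of 106.8 against 6.703 CPM, and KRT28 had a log2 fold change of 2.70. Of 9 hair shaft keratins 0 were higher, 4 were lower and 5 were not called. KRT35, a keratin of the hair cortex and cuticle, had 56.15 ± 21 CPM (SD, n = 2) in the LGR5-high cells against 296.9 ± 60.9 CPM. KRT84 and KRT31 had log2 fold changes of -2.76 and -1.04, the former with means of 0.3689 and 2.532 CPM. KRT31 lost its call without LGR5-negative of pig 88R (-0.85) or LGR5-high of pig 95R (-0.69), and with library size only, where 34.2% of all genes were higher and 14.6% lower, 2 hair shaft keratins were lower. Of keratins of simple and mucosal epithelium, 3 of 5 were higher and 1 lower. KRT8 had 81.68 and 1.562 mean CPM, a log2 fold change of 5.70, while KRT18, its usual type I partner, had 0.3556 and 0.5325 mean CPM and was not called (edgeR adjusted p = 0.619). KRT19 and KRT7 were higher, at 3.04 and 1.58, and KRT3, a keratin of the cornea, was lower, at -4.00 (-4.67 without LGR5-high of pig 95R). KRT7 is counted here by its symbol. The RefSeq gene table lists it as a long non-coding RNA, so its row may not hold the keratin mRNA.

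**Figure D5:**
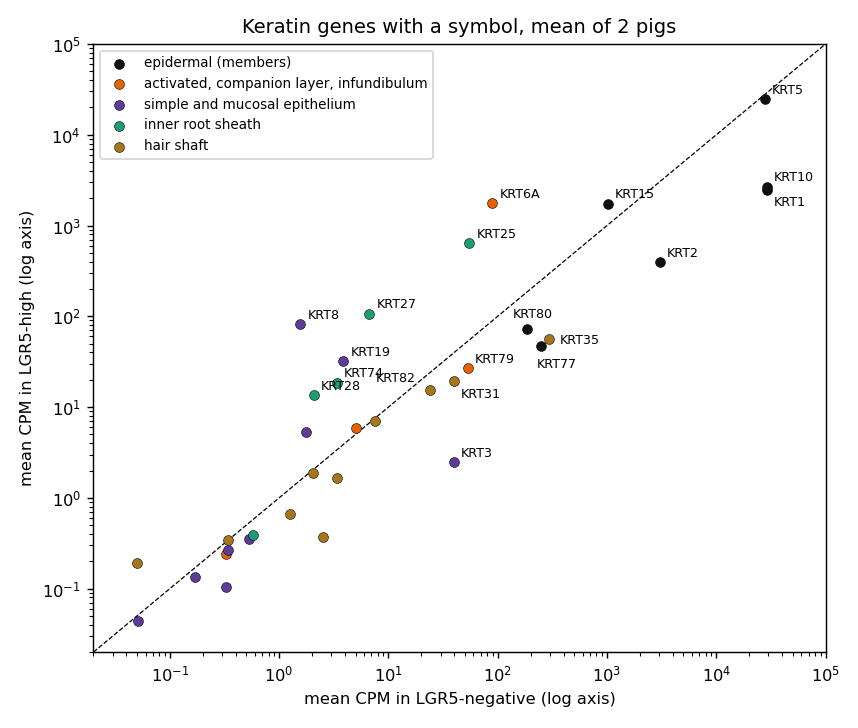
Mean CPM of 2 pigs in LGR5-high against LGR5-negative (log axes) for 35 keratin genes, coloured by the epithelium they are known from, with a dashed line at equality. KRT1, KRT10 and KRT2 lie under the line at the top right, and KRT6A, KRT25, KRT27 and KRT8 lie above it.

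Desmosomes anchor keratin filaments between cells, and of 13 genes of this list 2 were higher and 5 lower, against 22.7% and 22% of all genes, with a median log2 fold change of -0.42. With the block 3 were higher and 7 lower, against 28.5% and 27.2%. The desmocollins went apart: DSC1, the desmocollin of the upper epidermis, had 96.46 ± 4.35 CPM in the LGR5-high cells against 897.7 ± 43.2 CPM, while DSC2 had 628.8 ± 10.4 and 137.8 ± 10.2 CPM (SD, n = 2). Their log2 fold changes were -3.22 and 2.19. The desmogleins also went apart, with DSG1, of the upper layers, at -1.14 and DSG3, of the lower layers, at 0.87. The basal and intermediate desmocollin DSC3, the plakophilin PKP1 and the membrane protein PERP were lower, at -0.78, -0.86 and -0.74. The plaque genes DSP and JUP had log2 fold changes of -0.18 and -0.19 and were not called. Both turned to 0.04 with library size only.

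Hemidesmosomes anchor basal keratins to the basement membrane. Of 9 hemidesmosome and plakin genes 1 was higher and 7 lower, against 22.7% and 22% of all genes, with a median of -0.47. With the block 2 were higher and 7 lower, against 28.5% and 27.2%, and with library size only 1 was higher and 4 lower, against 34.2% and 14.6%. The integrin gene ITGA6 and the collagen gene COL17A1 had log2 fold changes of -0.94 and -0.47, and the linker genes DST and PLEC -0.72 and -0.37. The envelope plakins PPL and EVPL were at -1.32 and -1.09. CD151, a tetraspanin, was the higher gene, at 0.82. COL17A1 and PLEC lost their calls when either LGR5-high library was left out, with -0.44 and -0.32 without pig 88R and -0.50 and -0.42 without pig 95R.

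Of 15 genes tested for keratin bundling and the cornified envelope, 4 were higher and 5 lower, against 22.7% and 22% of all genes, with a median of -0.24. With the block 4 were higher and 7 lower, against 28.5% and 27.2%, so that the share of higher genes was near that of all genes in both fits. The lower genes named by size were TGM3, a transglutaminase, at -3.64, KRTDAP, a differentiation-associated protein, at -3.22, and CASP14, a caspase of cornification, at -2.72. SBSN, a suprabasal gene, had 394.6 and 1149 mean CPM. The higher genes were led by CRNN, the cornulin gene, at 5.77, CDSN, the corneodesmosin gene, at 4.20 and TCHH, the protein that hardens the inner root sheath, at 4.00. CDSN rested on 1 library: without LGR5-high of pig 95R its log2 fold change was 1.73, and without LGR5-high of pig 88R it was 5.06. It lost its call without LGR5-negative of pig 88R (edgeR adjusted p = 0.0591).

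Of 30 transcription factors and signalling genes known to act on keratin genes, 5 were higher and 19 lower, against 22.7% and 22% of all genes, with a median log2 fold change of -0.50. This list, like the others, was written with earlier results of these data known. With the block 5 were higher and 20 lower, against 28.5% and 27.2%, and with library size only 6 were higher and 14 lower, against 34.2% and 14.6%. TP63, the master regulator of stratified epithelium, had a mean of 569.5 CPM in LGR5-high against 642.1 CPM and was not called (edgeR adjusted p = 0.135). KLF4, a factor of terminal differentiation, had 800.9 ± 36 CPM and 2359 ± 52.1 CPM (SD, n = 2), a log2 fold change of -1.56. FOSL1, EHF and TFAP2C were lower, at -2.50, -2.28 and -2.24. NOTCH1, whose signal goes with the move out of the basal layer, was at -0.38 and JUNB at -0.33. Both lost their calls without either LGR5-high library (-0.37 and -0.26 without pig 88R, -0.39 and -0.39 without pig 95R), and JUNB also without LGR5-negative of pig 95R (-0.28). The higher genes with the largest change were ELF3 at 1.83, TFAP2B at 1.65 and NFIL3 at 0.52.

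Of other intermediate filament genes, 2 of 6 tested were higher and 2 lower, against 22.7% and 22% of all genes, with a median of 0.40. With the block 3 were higher, against 28.5% of all genes, as PRPH, the peripherin gene, was then called (edgeR adjusted p = 0.0625 without and 0.0242 with the block). VIM, the vimentin gene of mesenchymal and immune cells, had a mean of 4.02 CPM in LGR5-high against 50.51 CPM, and LMNA, a nuclear lamin, had 1384 against 2428 CPM. LMNB1 and NES were higher, at 0.88 and 2.54. Without LGR5-high of pig 95R the calls of LMNA (-0.67) and NES (1.88) were lost.

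The genes whose pattern over the 4 libraries was most like that of a keratin were found among 9277 genes by the distance between centred log2 CPM profiles. For KRT1 these were ADH1C, MFAP3L and WNT3, at distances of 0.0703, 0.114 and 0.143, and for KRT10 they were VLDLR, ADH1C and SOX6, at 0.129, 0.167 and 0.172. For KRT15 they were CCL2, FKBP14 and DUOXA1, at 0.213, 0.32 and 0.354, which are larger distances than for any other keratin examined. For KRT5 they were DHRS7B, PLP2 and RHOT2, at 0.0272, 0.0322 and 0.0344. These are likenesses over 4 libraries only.

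Markers of follicle cells and of other cells also differed between the populations, where 22.7% and 22% of all genes were higher and lower. Their part in the keratin results was not tested. Of 9 bulge and outer root sheath markers, 8 were higher in LGR5-high, with summed levels of 1410 to 1420 CPM against 189 to 241 CPM. This list holds LGR5 itself, the gene behind the sort, at 160.4 against 2.435 mean CPM. All 5 tested markers of Langerhans and other antigen presenting cells were lower, at 8.48 to 11.6 CPM against 136 to 195 CPM. Of 7 melanocyte markers 5 were lower, at 62.5 to 62.6 CPM against 85 to 261 CPM. Most of the LGR5-high sum came from the markers not called, MITF (27.46 against 22.27 mean CPM) and DCT (24.79 against 49.58 mean CPM). PMEL lost its call without LGR5-high of pig 95R (-2.95), and TYR without LGR5-high of pig 88R (-3.56) or of pig 95R (-3.30). Of 6 fibroblast markers 2 were higher and 4 lower, at 728 to 1010 CPM against 248 to 404 CPM. The higher ones were COL1A1 (236.8 against 65.64 mean CPM) and COL1A2 (529.3 against 40.84 mean CPM). COL1A1, at a log2 fold change of 1.85, was at 0.60 in pig 88R and 3.15 in pig 95R. It lost its call without LGR5-high of pig 95R (1.12) or LGR5-negative of pig 95R (1.32). The largest drops were in LUM (0.07272 against 1.338 mean CPM), COL3A1 (5.265 against 44.91) and PDGFRA (0.1036 against 0.7159). LUM and PDGFRA lay near the floor in LGR5-high. PDGFRA lost its call without LGR5-high of pig 88R (-2.93) or of pig 95R (-2.58). The summed levels thus go against the direction of 4 of the 6 markers. Endothelial markers were lower for 3 of 4 tested, at 4.86 to 6.63 CPM against 17.3 to 19.1 CPM. Merkel cell markers were higher for 2 of 3 tested, at 74 to 110 CPM against 2.11 to 3.9 CPM, which is KRT8 for the most part, and KRT20 had means of 0.2665 and 0.3389 CPM. Sebaceous markers were higher for 2 of 4 tested, at 1160 to 1220 CPM against 1150 to 1190 CPM. Of 5 T cell markers, CD3E, CD3D, CD3G and CD2 were at 0 in both LGR5-high libraries and near 0 in LGR5-negative, while CD247, the single one tested, was higher in LGR5-high, with 10.94 against 3.774 mean CPM (log2 fold change 1.53, edgeR adjusted p = 0.00154).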

How the data were processed

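RNA of the 4 libraries (LGR5-high and LGR5-negative of 2 pigs) was sequenced after poly(A) selection in paired reads of 150 bp. The authors deposited raw counts of reads per gene symbol; the submitters' processing notes name Trimmomatic 0.36, STAR 2.5.2b, featureCounts and Subread 1.5.2. Genome build, annotation, strand setting and the treatment of multi-mapping reads are not given in the sources used here. An entry without a name, with 0.36% to 0.626% of counts, was left out. All 29837 symbols matched the RefSeq gene table of Sscrofa11.1, used only for gene order and gene type.

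The counts were tested with edgeR 4.0.16 (quasi-likelihood test, TMM, filterByExpr by population) in R 4.3.3, with Benjamini-Hochberg adjustment over 15980 genes and a threshold of 0.05. The standard errors given for edgeR are the absolute log2 fold change divided by the square root of the test's F statistic. That test moderates the spread of each gene with that of all genes, so they do not measure the spread between the pigs alone. Values per pig used a prior count of 2. Alternatives were edgeR with other scalings and filters, the pig as replicate block, DESeq2 1.42.0, limma 3.58.1 (voom), the Student's t-test that the study's methods name, here on log2(CPM + 1), Bonferroni adjustment and leaving out each library. The scripts were tested on simulated data. Pairing comes from the pig number in the labels, and libraries of the same pig departed together from their population's mean (correlation 0.37 across genes). Within a population the pigs differed by more than counting noise (chi-square per degree of freedom 21.7 and 23.7). Intervals and floors cover counting error only.

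The genes and lists were chosen with earlier results of these data known. Of each list other than the 7 keratins, the genes named were up to 3 called genes per direction with the largest change, those with at least 1000 mean CPM, and, for KRT5, KRT15, KRT1 and KRT10, the 3 most alike genes with at least 10 mean CPM; KRT18, KRT20, TP63, PRPH, the T cell genes at 0 and the unnamed genes given by identifier were named outside the rule, after their values were seen. The planned ratios with KRT14 used KRT5 alone. Length and GC checks were not made. Figures were drawn with matplotlib.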

Additional observations from a re-analysis of the deposited data

How the results depend on the processing

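KRT1 and KRT10 kept direction and call in all 16 alternatives, with log2 fold changes of -3.68 to -3.45 and -3.55 to -3.33 when each library was left out. KRT2, KRT77 and KRT80 kept their direction, but lost the call with the t-test of the study's methods (-2.94, -2.30 and -1.34) and with Bonferroni adjustment (-2.96, -2.40 and -1.36). With the replicate block KRT15 was called by edgeR (0.73) and by DESeq2 (0.73, adjusted p = 3.58e-11), and leaving out a library gave 0.14 to 1.27. The replicate block, the pairing by pig, changed no other member's call and raised the members called higher to 1 and the hemidesmosome and plakin genes called higher to 2. With library size only, the median log2 fold change over all genes was 0.24. In that setting KRT5 turned to 0.044, DSP to 0.040, JUP to 0.038, TP63 to 0.051, DHRS7B to 0.029, PLP2 to 0.071 and RHOT2 to 0.067, none of them called. The hair shaft keratins called lower became 2 and the hemidesmosome and plakin genes called lower 4. Over all genes, the higher and lower calls were 5473 and 2326 with library size only, 544 and 502 with the t-test, 194 and 130 with Bonferroni adjustment, 2279 to 3169 and 2139 to 3004 when a library was left out, against 3632 and 3508. LOC110255312 had a log2 fold change of -0.11 to 0.17 when a library was left out. Of 87 other genes (those the naming rule covers, with markers not named in the text, and the further genes named), 15 kept their call and direction in every alternative that gave a value, 15 or 16 a gene, and 7 changed sign in at least 1. The basal to suprabasal ratio kept its log2 difference between 3.18 and 3.45 with a library left out. The cause was not tested for any of these. With 2 libraries a population, depth limits none of the 7 keratins, and the number of animals sets the precision.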

Other observations

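RefSeq places several genes without a name of their own among the keratin genes, and they are given here by identifier only. LOC110255312, which lies between EIF1 and KRT19, had 347183 and 383570 counts in LGR5-high and 331584 and 290722 counts in LGR5-negative, in pigs 88R and 95R. Its mean was 10860 ± 1070 CPM (SD, n = 2) in the LGR5-high cells against 10630 ± 1430 CPM, and it was not called (log2 fold change 0.03, edgeR adjusted p = 0.872). LOC100737113, in the same stretch, had 4223 and 1085 mean CPM, a log2 fold change of 1.96. In the type II stretch, LOC100525745 (between KRT82 and KRT6A) and LOC106506651 (between KRT5 and KRT74) were higher in LGR5-high, with 388.1 against 3.265 and 812.5 against 38.53 mean CPM. LOC100524022 (between KRT7 and KRT84) was lower, with 66.5 against 264 mean CPM and a log2 fold change of -1.99, which was -2.65 without LGR5-high of pig 88R and -1.54 without that of pig 95R, and its call was lost with the test that the study's methods name and with Bonferroni adjustment.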
